A study of Mus musculus with 9 samples.

Results

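PD-1 is an inhibitory receptor of activated T cells, and PD-L1 and PD-L2 are its ligands. Their genes Pdcd1, Cd274 and Pdcd1lg2 were taken by symbol from a table of 23366 genes, and all 3 were found and passed the filter on low values. The table holds RNA sequencing of CD8+ T cells that had infiltrated B16F10, a melanoma line grown as tumours in C57BL/6 mice. There were 5 WT libraries and 4 IL27ra KO libraries, the latter from mice lacking the receptor chain for interleukin 27. Both groups bore the same tumour and received no other labelled treatment, and each library was made from about 2000 lysed cells on average. The labels used here do not state the age of the mice, the part of Il27ra that was disrupted, or whether a library holds 1 animal or a pool. Values are FPKM, fragment numbers divided by transcript length and library size, scaled across libraries by TMM, a trimmed mean of gene ratios. The labels do not say that libraries came from separate animals, so p-values measure the spread between libraries, which may be in part technical.

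When PD-1 meets a ligand, tyrosines in its tail recruit the phosphatase SHP-2, which dampens signals from the T cell receptor and from CD28. Chronic stimulation through the T cell receptor keeps Pdcd1 transcribed, with NFAT, TOX and other factors at the gene. Cd274 is made by many cell types and is induced by interferon gamma through factors that include IRF1, whereas Pdcd1lg2 is made mainly by dendritic cells and macrophages and responds to interleukin 4 through STAT6.

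The stretches just before the start of each gene are shown as background, because the routes named above may act there in part. They come from RefSeq on the build GRCm38.p6, in which all 3 genes were matched by symbol, and each holds the 125 bases before the start, 5′ to 3′ on the gene's own strand. Pdcd1 lies on the minus strand at chr1:94052554-94052678, Cd274 on the plus strand at chr19:29367313-29367437 and Pdcd1lg2 on the plus strand at chr19:29410794-29410918, so the ligand genes are neighbours on chromosome 19. Capitals mark matches, on either strand, to an NFAT core (GGAAA), a partial site for interferon regulatory factors (GGTTTC) or a STAT6 site (TTC and GAA with 4 bases between).
Pdcd1: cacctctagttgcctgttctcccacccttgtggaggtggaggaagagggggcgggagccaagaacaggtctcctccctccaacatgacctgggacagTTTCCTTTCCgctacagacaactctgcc
Cd274: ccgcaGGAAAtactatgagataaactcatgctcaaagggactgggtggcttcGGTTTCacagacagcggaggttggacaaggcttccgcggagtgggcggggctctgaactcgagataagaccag
Pdcd1lg2: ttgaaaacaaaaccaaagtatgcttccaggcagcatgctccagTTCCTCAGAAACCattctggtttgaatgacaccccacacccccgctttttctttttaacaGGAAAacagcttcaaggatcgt

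Within 250 bases before its start, Pdcd1 held 2 NFAT cores, in adjoining positions on the strand opposite to the gene. Cd274 held 1 NFAT core and 1 GGTTTC, and Pdcd1lg2 held 1 NFAT core, 1 STAT6 site and 1 GGTTTC on the opposite strand that overlaps the STAT6 site. Among 32851 RefSeq promoters of that length, 55.6% held an NFAT core, 13.4% GGTTTC and 5.85% the STAT6 site. A GC box (GGGCGG, in 32.7% of promoters) occurred once in Pdcd1 and once in Cd274. AP-1 (TGANTCA), paired interferon regulatory factor (GAAA repeated after 2 bases) and FOXO (GTAAACA) letters, held by 6.75%, 2.98% and 3.17% of promoters, had 0 matches in these windows. A match describes letters and not a bound site, and a link between these letters and the differences among the libraries was not tested.

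The deposited table gives no read numbers. The spacing of low values, read with transcript lengths of GENCODE release M21, implied about 1730000 to 4080000 fragments in WT and 2530000 to 3840000 in IL27ra KO libraries. Il27ra, the targeted gene, had 25.74, 5.14, 15.24, 14.43 and 15.79 FPKM in WT replicates 1 to 5 and 4.09, 6.50, 5.62 and 7.80 FPKM in IL27ra KO replicates 1 to 4. The library labelled WT replicate 2 thus sits inside the IL27ra KO range, and the group difference in Il27ra did not pass (limma, log2 difference -1.10, adjusted p = 0.0996). When that library was left out, the difference in Il27ra was -1.42 and passed (limma, adjusted p = 0.00352), in the only 1 of 9 left-out fits where it did. Since its Il27ra value is what singled that library out, this fit cannot count as a test of the difference. With weights for library quality, which gave that library the lowest weight, the difference was also -1.42 and passed (limma, adjusted p = 0.00118). Some other results are also given without that library. The ribosomal RNA precursor Rn45s took 23.9% to 53.8% of the summed FPKM, most in WT replicates 3 and 4.

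Pdcd1 RNA was far lower in IL27ra KO than in WT libraries, and its groups did not overlap. It was 67.17, 157.21, 71.56, 49.69 and 128.94 FPKM in WT replicates 1 to 5 and 3.22, 7.43, 10.39 and 12.23 FPKM in IL27ra KO replicates 1 to 4. WT replicate 5 and the library labelled WT replicate 2 were the high ones, and even the lowest WT library was 4.06 times the highest IL27ra KO library. The means were 94.9 ± 45.8 (SD, n = 5) and 8.32 ± 3.93 FPKM (SD, n = 4), 11.4 times as high in WT. On the log2(FPKM + 1) scale, which understates changes of low genes, the difference was -3.36 (SE 0.38, 95% interval -4.17 to -2.55) and passed (adjusted p = 0.00048 by limma; two-sided exact permutation p = 0.0159, the smallest that 5 against 4 libraries allow).

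The fall of Pdcd1 ranked 3 from the lowest log2 difference among 10374 genes tested. Pdcd1 was the single member of the 3 past the threshold, beside 4.24% of all genes in either direction, 1.11% called lower and 3.13% called higher. Within libraries, Pdcd1 ranked 233 to 511 by FPKM among the genes tested in WT, and 2670 to 7413 in IL27ra KO. Leaving out the library labelled WT replicate 2 gave -3.14 (adjusted p = 0.00102). An estimated 222 to 1016 fragments stood behind each WT value and 23.9 to 80.7 behind each IL27ra KO value, for counting error only. In bulk RNA, fewer cells carrying Pdcd1 and less Pdcd1 RNA per cell cannot be told apart. When the fit carried the macrophage marker level, which itself differed by genotype, Pdcd1 had a difference of -3.82 (SE 0.95) that did not pass (adjusted p = 0.183).

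**Figure D1:**
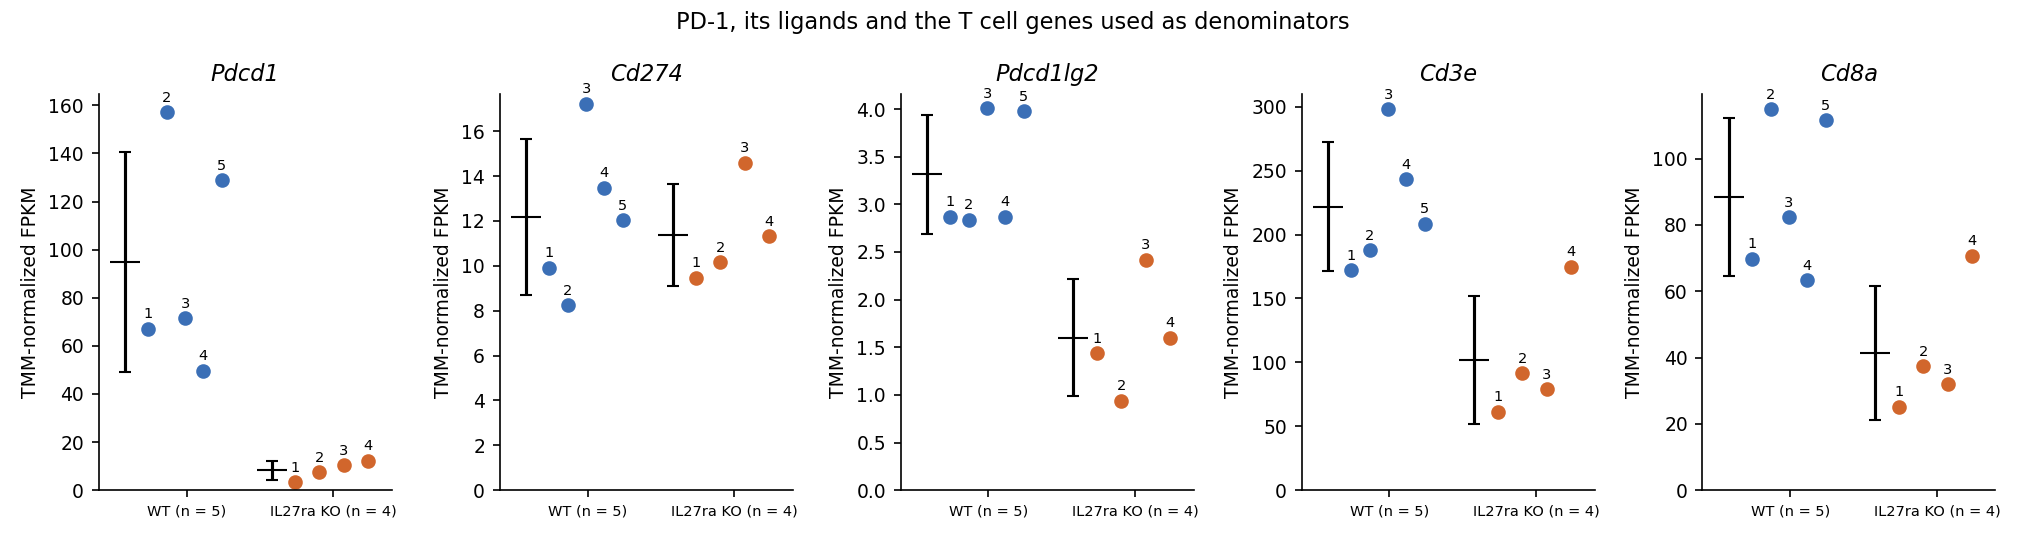
FPKM of Pdcd1, Cd274, Pdcd1lg2, Cd3e and Cd8a in each library (numbers are replicates), with the group mean and SD in black on linear axes from 0. Pdcd1 and Pdcd1lg2 separate the groups, Cd274 overlaps, and IL27ra KO replicate 4 lies inside the WT range of Cd3e and Cd8a while its Pdcd1 is 12.23 FPKM.

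Cd274, the gene of PD-L1, had nearly the same level in both groups. It was 9.91, 8.25, 17.23, 13.48 and 12.02 FPKM in WT and 9.47, 10.15, 14.60 and 11.33 FPKM in IL27ra KO, so all 4 IL27ra KO values lay within the WT range. The means were 12.2 ± 3.46 (SD, n = 5) and 11.4 ± 2.28 FPKM (SD, n = 4). The log2 difference of -0.07 (SE 0.22) was not past the threshold (adjusted p = 0.932 by limma; exact permutation p = 0.762). Its 95% interval ran from -0.55 to 0.41, which spans 0.685 to 1.33 times the WT level of FPKM + 1, so shifts within these bounds were not excluded. Its sign turned with the scaling, to 0.24 when libraries were given the same total and 0.57 when they were scaled to CD8 T cell identity genes, neither past the threshold.

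Pdcd1lg2, the gene of PD-L2, was the rarest of the 3 RNAs. It was 2.87, 2.84, 4.01, 2.87 and 3.98 FPKM in WT and 1.44, 0.94, 2.42 and 1.60 FPKM in IL27ra KO. The lowest WT library was 1.17 times the highest IL27ra KO library, so the groups did not overlap, beside 6.73% of all genes whose groups did not overlap, 2.47% lower and 4.26% higher. The means were 3.31 ± 0.622 (SD, n = 5) and 1.60 ± 0.615 FPKM (SD, n = 4), a WT mean 2.07 times that of IL27ra KO. The log2 difference was -0.75 (SE 0.21, 95% interval -1.20 to -0.29) and did not pass when adjusted over all genes (limma, adjusted p = 0.0691; exact permutation p = 0.0159).

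The Pdcd1lg2 values rest on few fragments, an estimated 11.0 to 27.4 in WT and 5.3 to 10.4 in IL27ra KO libraries. The difference passed with quantile normalization (-0.89, adjusted p = 0.0307) and with weights for library quality (-0.77, adjusted p = 0.0389). Scaling on CD8 T cell identity brought it to -0.11 (adjusted p = 0.804). That scaling moved the median of all genes to 0.66, against 0.02 as deposited. It shifts all genes of a library by the same amount, so the difference of Pdcd1lg2 from that median, -0.77, was bound to stay the same.

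**Figure D2:**
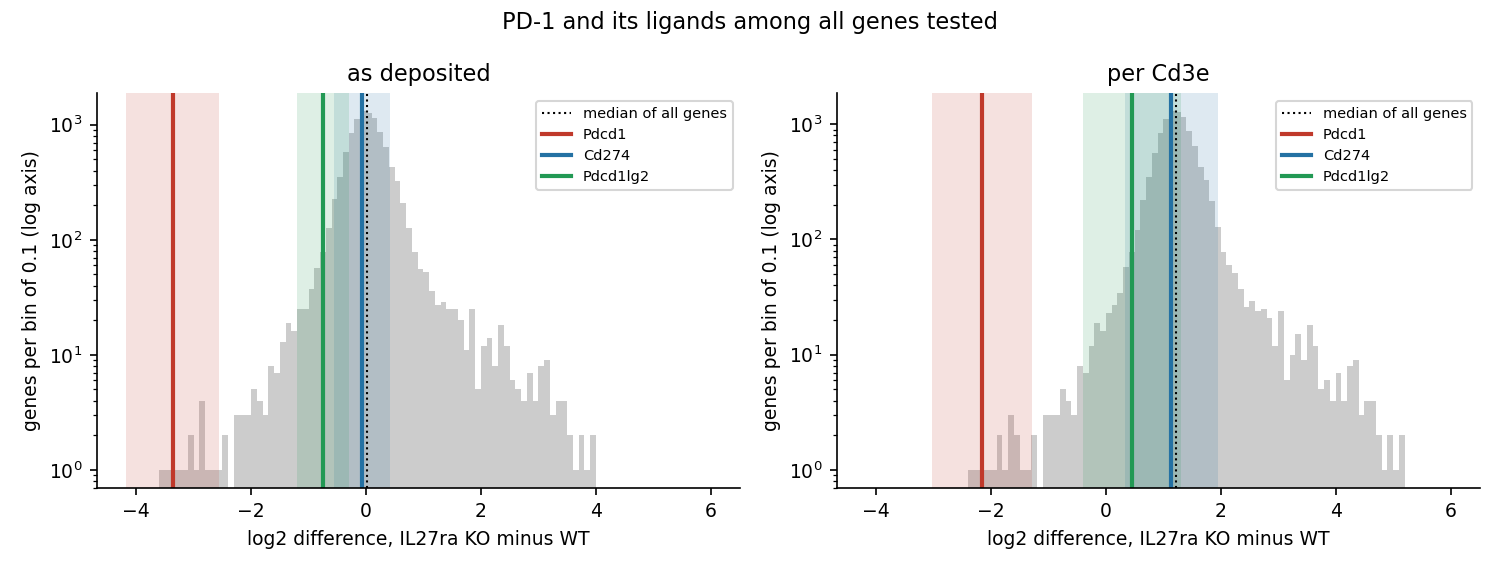
Histograms of the log2 difference (IL27ra KO minus WT) of all genes tested, as deposited on the left and per Cd3e on the right, with a log vertical axis; coloured lines are the 3 genes and shaded bands their 95% intervals. Pdcd1 lies at the lower edge at -3.36 and -2.15, and Cd274 beside the dotted median of all genes in both panels. The right panel shifts all genes alike, so positions relative to the median repeat those on the left.

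The ratio to Cd3e, which encodes CD3 epsilon, or to Cd8a, which encodes the CD8 alpha chain, sets each gene against a single T cell gene of its own library. Cd3e was 172.11, 187.68, 298.08, 243.39 and 208.60 FPKM in WT and 61.30, 91.51, 79.16 and 174.77 FPKM in IL27ra KO. Its log2 difference was -1.20 (adjusted p = 0.0317), and that of Cd8a was -1.15 (adjusted p = 0.0421). Both fell more than the median of 17 CD8 T cell identity genes, -0.73, and they were the only 2 of that list called. A ratio to either may thus overstate the shift in T cell RNA. With 1 library left out, the call of Cd3e was lost in 6 of 9 fits and that of Cd8a in 7. The call of Cd8a was lost also without the library labelled WT replicate 2 (limma, adjusted p = 0.0599). Because both denominators fell, the median of all genes rose by 1.23 per Cd3e and by 1.17 per Cd8a, and 86.4% and 80.9% of genes were called, nearly all as higher. A member's ratio is therefore read against that shift. The shift is the same for every gene, so a member's rank or distance from the median only repeats that of the deposited values.

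Pdcd1 fell per T cell gene as well. Per Cd3e it was 0.390, 0.838, 0.240, 0.204 and 0.618 in WT and 0.0525, 0.0812, 0.131 and 0.0700 in IL27ra KO. The groups did not overlap, with means of 0.458 ± 0.268 (SD, n = 5) and 0.0837 ± 0.0338 (SD, n = 4), 5.47 times as high in WT. The log2 difference was -2.15 (SE 0.43; limma, adjusted p = 0.000145; exact permutation p = 0.0159). Pdcd1 was among 21 of 10373 genes, 0.202%, called lower per Cd3e, and 0.125% were lower without overlap. The largest falls per Cd3e were those of Lag3 (-2.32), Penk (-2.28) and Pdcd1, in that order, which is fixed by the order as deposited. Lag3 is another inhibitory receptor.

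Per Cd8a, Pdcd1 was 0.962, 1.37, 0.869, 0.784 and 1.16 in WT and 0.128, 0.199, 0.326 and 0.173 in IL27ra KO, again without overlap. The WT mean of 1.03 ± 0.235 was 4.98 times the IL27ra KO mean of 0.206 ± 0.0848 (SD, n = 5 and n = 4). The log2 difference was -2.21 (SE 0.40; limma, adjusted p = 1.24e-06; exact permutation p = 0.0159), with 0.251% of genes called lower and 0.26% lower without overlap, and it was -1.50 with weights for library quality, whose estimation stopped before convergence and gave IL27ra KO replicate 3 a weight of 20.8. The spread of Pdcd1 within WT was smaller per Cd8a, from 0.784 to 1.37, than per Cd3e, from 0.204 to 0.838. IL27ra KO replicate 4 had as much Cd3e (174.77 FPKM) and Cd8a (70.67 FPKM) as the lower WT libraries, and its Pdcd1 ratios of 0.0700 and 0.173 still lay below every WT library.

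**Figure D3:**
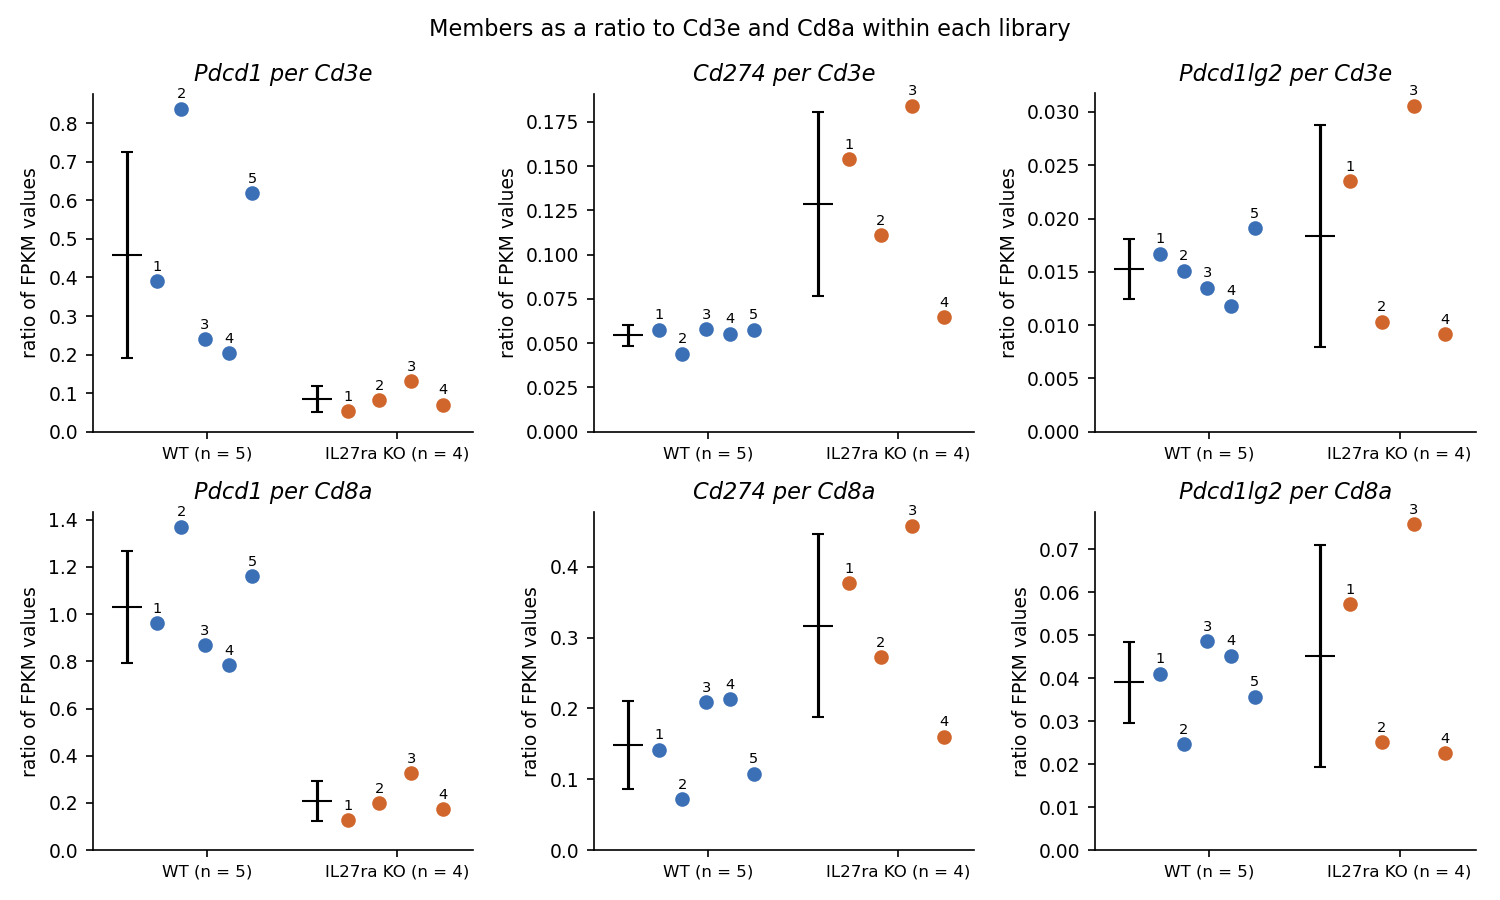
FPKM ratios of Pdcd1, Cd274 and Pdcd1lg2 to Cd3e (top) and Cd8a (bottom) in each library, with the group mean and SD in black. Pdcd1 separates the groups downward, Cd274 per Cd3e upward, and Pdcd1lg2 overlaps in both rows.

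Cd274 per Cd3e was narrow in WT, at 0.0576, 0.0440, 0.0578, 0.0554 and 0.0576, and was 0.154, 0.111, 0.184 and 0.0648 in IL27ra KO. The groups did not overlap, beside 26.8% of all genes that were likewise higher per Cd3e without overlap, and the IL27ra KO mean was 2.36 times the WT mean. The log2 difference of 1.14 passed (SE 0.41; limma, adjusted p = 0.0121; exact permutation p = 0.0159), as did 86.2% of genes in that direction. It lay below the median of all genes, 1.23, and IL27ra KO replicate 3 decided the call, which had an adjusted p of 0.0718 when it was left out. Per Cd8a the difference was 1.08 (SE 0.42, adjusted p = 0.0184, with 80.6% of genes called higher). There the groups overlapped, since IL27ra KO replicate 4 at 0.160 lay among WT values of 0.0718 to 0.213, whereas 21.7% of all genes were higher per Cd8a without overlap. The call of Cd274 per Cd8a did not survive leaving out WT replicate 5, the library labelled WT replicate 2, IL27ra KO replicate 1 or IL27ra KO replicate 3 (adjusted p up to 0.0974).

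Pdcd1lg2 did not pass per T cell gene, and its groups overlapped. Per Cd3e it was 0.0118 to 0.0191 in WT and 0.00915 to 0.0306 in IL27ra KO, and per Cd8a 0.0247 to 0.0487 and 0.0226 to 0.0759. In both ratios IL27ra KO replicates 1 and 3 lay above WT and replicate 4 below it, while replicate 2 was below WT per Cd3e and inside the WT range per Cd8a. The log2 differences were 0.46 (95% interval -0.39 to 1.30, adjusted p = 0.291; exact permutation p = 0.270) and 0.40 (95% interval -0.52 to 1.32, adjusted p = 0.402; exact permutation p = 0.302). Without IL27ra KO replicate 4 the difference per Cd3e was 0.74 and passed (adjusted p = 0.0354).

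The balance of ligand to receptor RNA turned over between the groups. Cd274 per Pdcd1 was 0.148, 0.0525, 0.241, 0.271 and 0.0932 in WT and 2.94, 1.37, 1.41 and 0.926 in IL27ra KO, so Pdcd1 RNA was the more abundant per length in all 5 WT libraries and Cd274 RNA in 3 of 4 IL27ra KO libraries. The groups did not overlap, with means of 0.161 ± 0.0936 (SD, n = 5) and 1.66 ± 0.881 (SD, n = 4). The log2 difference of 3.29 passed (two-sided exact permutation p = 0.0159), which is also the test that Pdcd1 and Cd274 changed unequally. The ratio does not depend on how libraries are scaled, apart from the pseudocount. Pdcd1lg2 per Cd274 was 0.290, 0.344, 0.233, 0.213 and 0.331 in WT and 0.152, 0.0926, 0.166 and 0.141 in IL27ra KO. Here too the groups did not overlap, the means being 0.282 ± 0.0582 and 0.138 ± 0.0318 (SD, n = 5 and n = 4). The log2 difference was -0.68 (exact permutation p = 0.0159), and with a pseudocount of 5 it was -0.28 (exact permutation p = 0.0794). These 2 ratios were tested singly, and their p-values are not adjusted.

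**Figure D4:**
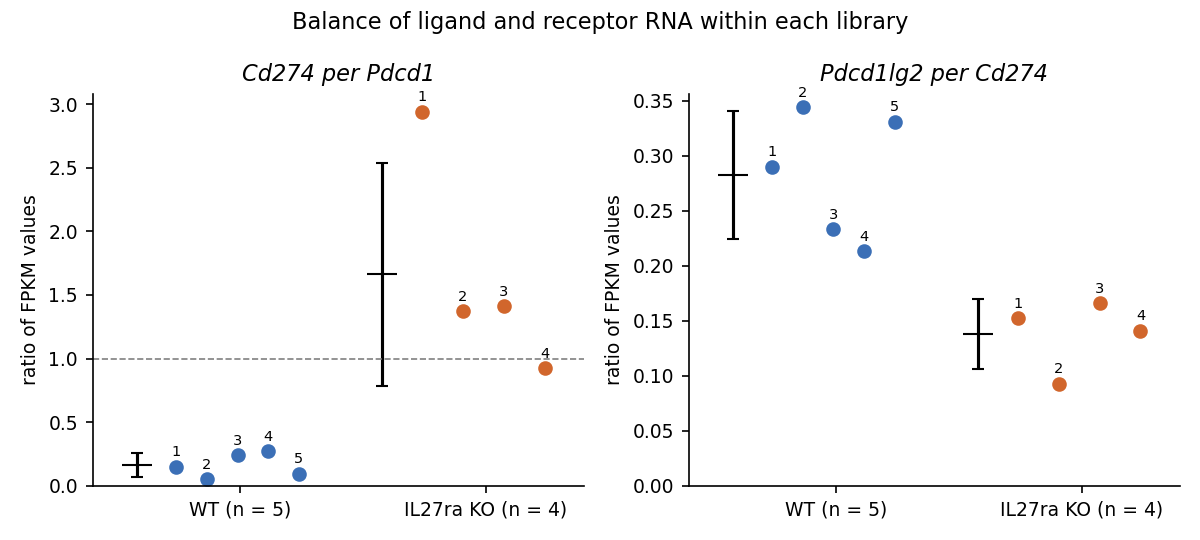
FPKM ratio of Cd274 to Pdcd1 (left, dashed line at equal levels) and of Pdcd1lg2 to Cd274 (right) in each library, with the group mean and SD in black. WT libraries lie at 0.0525 to 0.271 on the left, and IL27ra KO libraries at 0.926 to 2.94.

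Markers of some other cells moved with the genotype. Over all genes tested, 3.13% were called higher and 1.11% lower. Of 21 macrophage and monocyte genes, 19 rose and 2 did not pass, with a summed level of 349 to 709 FPKM in WT and 1140 to 2210 FPKM in IL27ra KO. Ly6c2, 1 of the 2 that did not pass, held 188.82 to 327.94 FPKM of the sum in WT libraries. In IL27ra KO libraries it held 244.74 to 567.53 FPKM, the most in replicate 4. Of 16 dendritic cell genes, 9 were tested, 5 rose and 4 did not pass, with summed levels of 108 to 593 and 516 to 2010 FPKM. Cd74 and H2-Ab1 were the highest of the list, at 65.1 and 54.3 FPKM in WT and 515 and 421 FPKM in IL27ra KO on average. Ccr7, 1 of those that did not pass, held 60.42 to 123.97 FPKM of the WT sums. Flt3, Clec9a, Xcr1, Batf3, Ccl22, Ccl17 and Siglech were not tested and had at most 2.52 FPKM in any library. The list of 17 CD8 T cell identity genes summed to 1230 to 1980 FPKM in WT and 575 to 1520 FPKM in IL27ra KO. Of these, 2 were lower, the denominators Cd3e and Cd8a, and 15 were not past the threshold. Melanoma genes (0 of 8 called) summed to 380 to 1230 and 572 to 1350 FPKM. The B cell, neutrophil and mast cell, fibroblast and endothelial, and other T and NK cell lists had 0 calls and at most 13.4 FPKM in sum in any library. Only 1 of 6, 2 of 9, 1 of 8 and 3 of 7 of their genes, in that order, were tested, so most could not be called. Cd4 was at most 0.45 FPKM and the B cell gene Ms4a1 was listed at 0 in all 9 libraries, as were the neutrophil genes Retnlg and Mpo. The B cell genes Pax5 and Blk were listed at 0 in every library of at least 1 group.

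Macrophages and dendritic cells can make the ligands, and some genes of both marker lists rose. The ligands were therefore set beside 1 gene of each list. In the dendritic cell list, 5 of 9 tested genes were called higher, Itgax included (log2 difference 1.84). The 4 not called were Zbtb46 (-0.25), Ccr7 (0.04), Fscn1 (0.73) and H2-Eb1 (3.28). Itgax thus does not speak for the whole list, and a change in the number of dendritic cells was not tested. Per Csf1r, the macrophage growth factor receptor, Cd274 was 3.00 to 45.0 in WT and 0.211 to 1.03 in IL27ra KO, and Pdcd1lg2 was 0.870 to 13.0 and 0.0320 to 0.146. The WT ratios rest on an estimated 1.1 to 23.0 fragments of Csf1r a library, so they are imprecise. Per Itgax, the gene of CD11c, Cd274 was 5.52 to 15.0 and 0.821 to 2.41, and Pdcd1lg2 was 1.18 to 5.16 and 0.116 to 0.394. Csf1r rose from 2.02 ± 1.60 to 33.1 ± 17.5 FPKM and Itgax from 1.47 ± 0.796 to 8.14 ± 4.14 FPKM (SD, n = 5 and n = 4), so both denominators were higher in IL27ra KO. They did not move together within that group, as replicate 4 had its lowest Csf1r (10.99 FPKM) and its highest Itgax (13.8 FPKM). IL27ra KO replicate 4 had the lowest macrophage sum of its group, 1140 FPKM, of which Ly6c2 was 567.53 FPKM. That library also had the highest Pdcd1 (12.23 FPKM), Cd3e (174.77 FPKM) and Cd8a (70.67 FPKM) of its group. IL27ra KO replicate 3 had a higher macrophage sum than replicate 2 (2040 and 1790 FPKM) and also more Pdcd1 (10.39 and 7.43 FPKM). The part that other cells had in the levels of the 3 genes was not tested.

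The genes around the axis were followed in 6 lists, whose counts stand beside 1.11% of all genes called lower and 3.13% called higher. Of the 12 relatives in the CD28 and B7 families, 11 were tested, 1 fell, 1 rose and 9 did not pass (median log2 difference 0.22, beside 0.02 for all genes). Ctla4, the inhibitory counterpart of CD28, averaged 77.7 ± 28.5 FPKM in WT (SD, n = 5) and fell to 21.3 ± 5.32 FPKM in IL27ra KO (SD, n = 4), with an adjusted p of 0.0025 by limma. 4632428N05Rik, the gene of VISTA, rose from 12.0 ± 0.558 to 20.5 ± 1.19 FPKM (adjusted p = 0.0191), and both T cells and myeloid cells make it. Cd80, which binds CD28, CTLA-4 and also PD-L1, had 1.78 and 0.755 FPKM (adjusted p = 0.359), and Rgmb, which binds PD-L2, had 1.26 and 3.28 FPKM (adjusted p = 0.0863).

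Downstream of the receptor, 2 of 21 signalling genes fell and 19 did not pass (median -0.33). They were Cblb, a ubiquitin ligase that restrains T cell activation, from 26.96 to 59.58 FPKM in WT libraries to 12.20 to 28.0 FPKM in IL27ra KO libraries (log2 difference -1.25, adjusted p = 0.0170), and Cd3e. Ptpn11, the gene of SHP-2, had 7.24 ± 1.53 and 6.12 ± 0.454 FPKM (log2 difference -0.19, SE 0.19, adjusted p = 0.711). Ptpn6, the gene of the related phosphatase SHP-1, had 35.7 ± 8.04 and 39.4 ± 5.81 FPKM (0.16, SE 0.21, adjusted p = 0.808). Neither phosphatase passed, and Ptpn11 turned to 0.09 with the same total and 0.45 with CD8 T cell identity scaling.

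Among 30 transcription factors that bind or control Pdcd1, 6 fell, 3 rose and 21 did not pass, with a median of -0.05. Over all genes tested, 1.11% were called lower and 3.13% higher. Tox, which shapes chromatin in exhausted T cells, had 27.03, 22.70, 17.61, 14.35 and 32.91 FPKM in WT and 3.09, 4.62, 4.28 and 5.25 FPKM in IL27ra KO. Its groups did not overlap, beside 2.47% of all genes that were lower without overlap. Tox fell by 2.13 on the log2 scale (SE 0.24, limma, adjusted p = 0.00048). Nr4a2, an orphan nuclear receptor induced by T cell receptor signals, fell by 1.27 and Prdm1, the gene of Blimp-1, fell by 1.30 (adjusted p = 0.0123 and 0.0159). Nfatc1, the calcium-responsive factor that drives Pdcd1, fell by 0.94, and Stat3, a transducer of interleukin 27, fell from 60.4 to 27.2 FPKM (adjusted p = 0.0266 and 0.0116). With CD8 T cell identity scaling, Nr4a2 was -0.64, Prdm1 -0.66, Nfatc1 -0.30 and Stat3 -0.45, none past the threshold. Tox was -1.49 on that scale and passed (limma, adjusted p = 0.00478). Those that rose include Fos, a subunit of AP-1, from 80.5 ± 16.6 to 178 ± 34.2 FPKM, and Klf2, a factor of quiescent and circulating T cells, from 7.76 to 15.02 FPKM in WT libraries to 18.54 to 27.66 FPKM in IL27ra KO libraries (adjusted p = 0.011 and 0.00768). Tbx21, the gene of T-bet, which can repress Pdcd1, had 16.7 ± 4.90 and 11.1 ± 6.65 FPKM (adjusted p = 0.378).

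The interferon gamma route to Cd274 had 16 genes tested, of which 2 rose, 1 fell and 13 did not pass (median 0.02). Ifng itself had 21.77, 61.29, 20.33, 13.77 and 34.97 FPKM in WT and 10.30, 8.97, 7.50 and 38.87 FPKM in IL27ra KO. IL27ra KO replicate 4 lay inside the WT range and the other 3 below it (log2 difference -0.98, SE 0.46, adjusted p = 0.341), and without replicate 4 the difference was -1.49 and passed (adjusted p = 0.0389). Irf1, a factor that carries the signal to Cd274, had a difference of -0.06 (SE 0.24) that did not pass (adjusted p = 0.948) and turned positive with the same total and with CD8 T cell identity scaling. Ifngr2, a receptor chain, rose by 1.24 and Ciita, the master regulator of MHC class II genes, rose by 1.52, while Irf8, a factor of myeloid and activated T cells, fell by 1.69 (adjusted p = 0.0454, 0.0196 and 0.0468).

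Of 19 genes of the interleukin 4, GM-CSF and NF-kB routes, 16 were tested, 2 rose, 1 fell and 13 did not pass (median -0.11). The 2 were the GM-CSF receptor chains Csf2ra, from 1.70 ± 0.795 to 11.8 ± 5.15 FPKM, and Csf2rb, from 1.14 ± 0.534 to 9.23 ± 4.79 FPKM (adjusted p = 0.00123 and 0.00287), and the 1 was Stat3. Stat6 had 20.4 ± 6.45 and 22.8 ± 1.68 FPKM (adjusted p = 0.762). Of 14 genes of PD-1 and PD-L1 protein turnover, 1 fell and 13 did not pass (median 0.12). It was Hip1r, which delivers PD-L1 to lysosomes, from 11.2 ± 1.87 to 5.93 ± 1.33 FPKM (adjusted p = 0.0299). Cmtm6, which keeps PD-L1 at the cell surface, had 9.74 ± 5.33 and 14.4 ± 0.669 FPKM (adjusted p = 0.366).

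**Figure D5:**
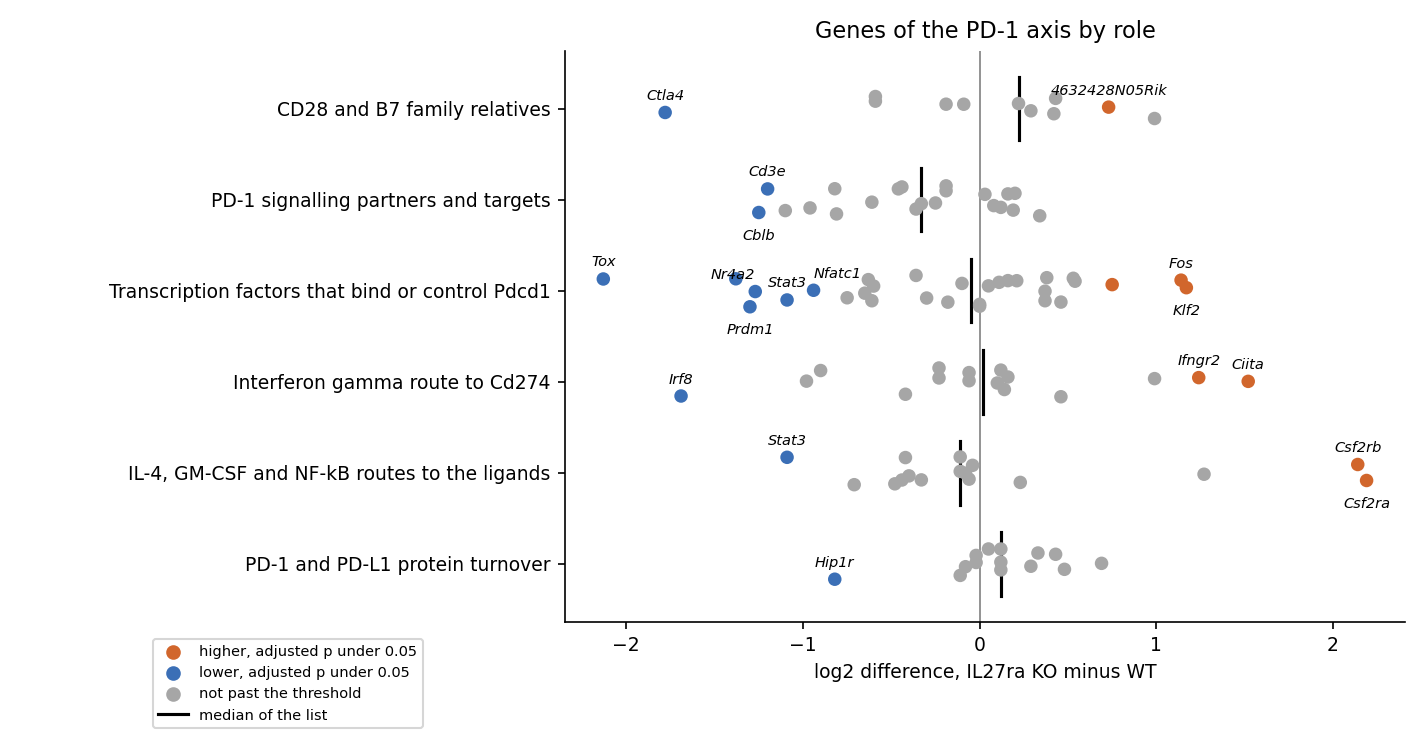
Log2 difference (IL27ra KO minus WT) of each tested gene in the 6 lists, 1 point a gene, coloured by call, with the list median as a black bar. Medians lie between -0.33 and 0.22, and the named genes past the threshold spread to both sides.

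Calls of named genes varied in how they held when 1 library was left out. Of 18 named genes that passed, Cd3e and Cd8a included, 5 kept their call in all 9 such fits: Tox, Ctla4, Csf2ra, Csf2rb and Klf2. The other 13 lost it without IL27ra KO replicate 1. For Nr4a2, Prdm1 and Stat3 this was the single such loss (adjusted p = 0.0582, 0.0712 and 0.0572), whereas Fos lost it also without IL27ra KO replicate 3. Cblb, Nfatc1, Ifngr2, Ciita, Irf8, Hip1r and 4632428N05Rik lost it in 3 to 7 of 9 fits. For Irf8 these included the fit without the library labelled WT replicate 2 (limma, adjusted p = 0.0656). Of the 18, 9 lost their call under CD8 T cell identity scaling: Cd3e, Cd8a, Cblb, Nr4a2, Prdm1, Nfatc1, Stat3, Irf8 and Hip1r. On that scale Cblb was -0.61, Irf8 -1.05 and Hip1r -0.18. The call was lost by 14 with the replicate block, 16 with no filter on low values and all 18 with the macrophage covariate. Tox lost its call with the macrophage covariate (adjusted p = 0.267), and Ctla4 with that covariate (adjusted p = 0.235) and with no filter (adjusted p = 0.0693). Csf2ra, Csf2rb and Klf2 likewise lost theirs with the covariate (adjusted p = 0.749, 0.951 and 0.457) and with no filter (adjusted p = 0.0564, 0.0898 and 0.0754), and Klf2 also with the block (adjusted p = 0.0668).

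The genes whose profile was most like that of each member were found over the 9 libraries, as the smallest root mean square difference in log2(FPKM + 1) after centring each gene on its own mean, among 5722 genes of at least 5 FPKM. This is a description, and the 9 points share genotype and library. For Pdcd1 the nearest were Tnfrsf9, the gene of 4-1BB, at 0.37 log2 units, Lag3 at 0.40, Rgs16, a brake on G protein signals, at 0.54, Havcr2, the gene of TIM-3, at 0.56, and Nrn1, the gene of neuritin, at 0.59, against a median of 1.79 over all candidates. Tnfrsf9 had 56.7 ± 29.2 and 6.46 ± 2.66 FPKM and Lag3 46.2 ± 31.3 and 2.52 ± 0.718 FPKM (SD, n = 5 and n = 4). For Cd274 the nearest were Akt2 and Emc1 (both 0.14), Gpatch8, Smchd1 and Dennd4b (each 0.15), against a median of 0.46. For Pdcd1lg2 they were Gbp6, an interferon-induced GTPase, at 0.18, Atp10a at 0.20, Stard4 and Scyl2 at 0.21 and Memo1 at 0.22, against a median of 0.56. Gbp6 had 14.8 ± 1.72 and 7.15 ± 1.67 FPKM (SD, n = 5 and n = 4).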

How the data were processed

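RNA was measured by sequencing in 9 bulk libraries made with an adaptation of SMART-Seq 2, per the labels' protocols, a method without molecular identifiers, so that fragments need not be independent molecules. The table deposited by the authors gives FPKM per gene, computed by RSEM and then TMM normalized, per the labels. TopHat, DESeq and the build mm9 are also named in the submitters' processing notes, with no version or role. RSEM splits fragments among similar genes. All columns mapped to labelled samples.

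Groups were compared on log2(FPKM + 1) of the 10374 genes whose mean was 1 FPKM or more. The fit used limma 3.58.1 (lmFit, eBayes with a trend; R 4.3.3) with p-values Benjamini-Hochberg adjusted over all of them at a threshold of 0.05. For the ratios, the log2 value of Cd3e or Cd8a was subtracted from every gene in each library before the same fit. The denominator's error is then shared by all genes, so exact permutation p-values over 126 splits, 2 times the smaller tail, stand beside these fits. Tests were tried on simulated data. Depth was read from 3810 single-transcript genes, of whose low values 63.3% to 68.2% lay within 0.1 of a whole multiple of 1 fragment, against 20% for evenly spread values. These are estimates, since lengths come from another build than mm9.

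The 3 members, the 6 pathway and 8 marker lists, the motif letters and the rule for named genes were chosen with earlier results of these data known. The rule names the members, denominators and Il27ra, up to 5 passing genes per pathway list by smallest p, further genes of the axis whatever their p (Cd80, Rgmb, Ptpn6, Ptpn11, Tox, Nfatc1, Prdm1, Tbx21, Ifng, Irf1, Stat6 and Cmtm6), and the 5 nearest genes per member. Some items covered by the rule or the lists are not reported here. Csf1r, Itgax, Cd4, Ms4a1, Pax5, Blk, Retnlg, Mpo, Penk and Rn45s are named outside it, after their values were seen. So are Zbtb46, Ccr7, Fscn1, H2-Eb1, Flt3, Clec9a, Xcr1, Batf3, Ccl22, Ccl17 and Siglech. As alternatives, the pseudocount was 0.1 or 5, the filter was dropped or set at 5 FPKM, and the fit was repeated with other scalings, library weights, a replicate block, a macrophage covariate and each library left out. A total without Rn45s was chosen after seeing the data.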

Additional observations from a re-analysis of the deposited data

Results flagged for a closer look

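Cd274 per Cd3e was 0.0440 in the library labelled WT replicate 2, apart from the other 4 WT libraries at 0.0554 to 0.0578. It stood out as a sample far from the others of its group, its gap to the nearest being 0.825 of the range of the group. Of 28 groups of values looked at in this way, 1 was marked, and chance alone marks about 1 in 20. The same library had the lowest Cd274 (8.25 FPKM), the highest Pdcd1 (157.21 FPKM) and the lowest Il27ra (5.14 FPKM) of its group.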

How the results depend on the processing

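The fall of Pdcd1 kept its direction in all 20 alternatives and its call in 19, from -3.57 to -3.02 with 1 library left out (adjusted p at most 0.00302). It was -2.72 with CD8 T cell identity scaling and -3.82 with the macrophage covariate, where it did not pass (limma, adjusted p = 0.183). The identity scaling shifts all genes alike, so the distance of Pdcd1 from their median, -3.38, was bound to stay as in the deposited values. Pdcd1 per Cd3e (-2.39 to -1.67) and per Cd8a (-2.43 to -1.50) passed in all 15 alternatives each. Cd274 passed in none (limma, lowest adjusted p = 0.211), and its sign turned to 0.24 with the same total, 0.57 with CD8 T cell identity scaling and 0.30 with the macrophage covariate, and it ran from -0.18 to 0.06 with 1 library left out. Pdcd1lg2 passed with library weights (-0.77) and quantile normalization (-0.89), ran from -0.89 to -0.62 with 1 library left out, and could not be fitted with the filter at 5 FPKM, which removes it. Cd274 per Cd3e ran from 0.94 to 1.43 and Cd274 per Cd8a from 0.86 to 1.37 with 1 library left out. Pdcd1lg2 per Cd3e passed with a pseudocount of 5 (0.83) and ran from 0.23 to 0.74 with 1 library left out, and Pdcd1lg2 per Cd8a passed with library weights (0.83). The library weights did not converge in the fits per Cd3e and per Cd8a, so their values there are unreliable. Pdcd1lg2 per Cd274 did not pass with a pseudocount of 5 (-0.28). Genes called numbered 440, and 974 with library weights, 273 with the replicate block, 84 with no filter, 219 with the filter at 5 FPKM, 976 with CD8 T cell identity scaling, 6 with the macrophage covariate (1151 at an unadjusted p under 0.05) and 226 to 632 with 1 library left out (242, 268 and 226 without IL27ra KO replicate 1, 2 or 3, and 496 without the library labelled WT replicate 2). Higher and lower calls were 325 and 115 as deposited, 291 and 167 with quantile normalization, 525 and 65 with the same total, and 947 and 29 with CD8 T cell identity scaling, where the median of all genes was 0.66, against 0.02 as deposited and 0.29 with the same total. With the macrophage covariate the signs turned for Cblb (0.05), Cd3e (0.08), Ciita (-0.58), Csf2rb (-0.11), Il27ra (0.71), Irf1 (0.92) and Ptpn6 (-0.20), none past the threshold. With the same total they turned for Irf1 (0.27) and Ptpn11 (0.09), and without Rn45s in the total for Irf1 (0.01). With CD8 T cell identity scaling they turned for Cd80 (0.04), Irf1 (0.58), Ptpn11 (0.45) and Tbx21 (0.01). With 1 library left out, Irf1 ran from -0.22 to 0.16 and Stat6 from -0.01, without the library labelled WT replicate 2, to 0.32. The causes were not tested.

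The replicate numbers are shared by WT and IL27ra KO in the labels. Deviations of same-numbered libraries from their group means had correlations of -0.147 to 0.003 over genes, against -0.072 to 0.126 for other-numbered ones. No pairing by number was seen, but 4 pairs are too few to settle whether numbers share a batch. With the replicate block, Cd274 per Cd8a was 0.99 and did not pass (adjusted p = 0.102). Over the 4 shared numbers, Cd274 per Pdcd1 was 3.15 and Pdcd1lg2 per Cd274 -0.63, each with an exact sign-flip p of 0.125, the smallest that 4 pairs allow. Among the 3 members, Pdcd1lg2 had the fewest fragments, an estimated 5.3 to 27.4 a library. Cd80 had 1.9 to 26.7, and Csf1r, a denominator of printed ratios, had 1.1 to 23.0 in WT.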
